A study of Mus musculus with 5 samples.

Results

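Homeobox genes encode regulators with a homeodomain, through which most of them bind DNA. Here 7 that pattern the heart were examined in whole wild-type mouse hearts at E12.5: Nkx2-5, Isl1, Hopx, Irx3, Irx4, Irx5 and Prox1. They were chosen by name, as all probe sets whose array annotation gives 1 of these 7 symbols and no other. This gave 9 probe sets among the 20380 analysed, or 7 of 12393 genes. Isl1 and Hopx had 2 probe sets each and the other members had 1. All 5 embryos were wild type, of strain 129P2/OlaHsd that had been crossed back to C57BL/6 for 2 generations, and none was treated. RNA of each heart was amplified from 10 ng and hybridised to an Affymetrix mouse 430A array. The hearts are named 6 to 10 by the replicate numbers in their titles. They form a single group without a second condition, so levels and the spread between hearts could be measured, but no contrast. Nothing in the sources used here says whether the embryos were littermates.

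The heart is built from an early crescent of mesoderm and from a second heart field that is added later at the arterial and venous poles. Nkx2-5 is among the earliest factors of cardiac precursors and works in complexes with Gata4 and Tbx5. Isl1, a LIM-homeodomain factor, marks the second heart field and is switched off as its cells become muscle, but persists in the sinoatrial node and in cardiac neurons. Hopx has a divergent homeodomain that does not bind DNA and acts through partners such as the serum response factor, Srf. Irx3, Irx4 and Irx5 belong to the Iroquois family, in which Irx4 is a marker of ventricular muscle, and Irx3 and Irx5 shape conduction and repolarisation. Prox1 is of the Prospero type and is known from lymphatic endothelium and liver and as a regulator of sarcomere genes in heart muscle.

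Of the 7 genes, 6 had an entry in the RefSeq promoter table (GRCm38.p6), with 8 annotated starts in all, and the 250 bases before each start were searched. Shown are the windows of Nkx2-5 and Isl1, the earliest cardiac factors among the members, of both Hopx starts, since 2 Hopx probe sets gave unlike signal, and of Irx3, whose order of hearts was also that of its neighbour Irx5 under the main scaling. Capitals mark a match, on either strand, to the TATA box (TATAAA), the Nkx2-5 element (TNAAGTG), a homeodomain core (TAATTA), the site of GATA factors (AGATAA), the CCAAT box, an E-box (CACGTG), a GC box (GGGCGG) or, by name alone, the CArG box bound by Srf. Sequences run 5′ to 3′ along the gene.
Nkx2-5, chr17:26841566-26841815, minus strand: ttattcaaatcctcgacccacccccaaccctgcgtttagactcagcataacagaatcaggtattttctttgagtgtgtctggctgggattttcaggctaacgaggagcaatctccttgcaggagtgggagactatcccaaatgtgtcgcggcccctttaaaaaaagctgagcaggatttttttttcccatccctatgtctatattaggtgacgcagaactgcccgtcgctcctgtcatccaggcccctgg
Isl1, chr13:116309689-116309938, minus strand: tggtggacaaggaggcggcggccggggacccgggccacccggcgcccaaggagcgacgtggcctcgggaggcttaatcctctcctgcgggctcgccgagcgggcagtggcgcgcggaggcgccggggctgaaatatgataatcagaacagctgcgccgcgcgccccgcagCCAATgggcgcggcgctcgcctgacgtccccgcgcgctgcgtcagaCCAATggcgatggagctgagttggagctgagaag
Hopx, upstream start, chr5:77115124-77115373, minus strand: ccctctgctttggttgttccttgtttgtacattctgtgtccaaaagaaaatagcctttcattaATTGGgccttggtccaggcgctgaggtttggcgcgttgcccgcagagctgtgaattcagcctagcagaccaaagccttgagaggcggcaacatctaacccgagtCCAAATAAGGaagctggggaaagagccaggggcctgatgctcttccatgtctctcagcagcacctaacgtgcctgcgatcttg
Hopx, downstream start, chr5:77095268-77095517, minus strand: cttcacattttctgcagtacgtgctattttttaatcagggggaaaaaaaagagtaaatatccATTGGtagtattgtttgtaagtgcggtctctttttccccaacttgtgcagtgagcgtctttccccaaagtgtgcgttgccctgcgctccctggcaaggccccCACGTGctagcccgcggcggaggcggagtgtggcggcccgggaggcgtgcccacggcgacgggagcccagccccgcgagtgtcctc
Irx3, chr8:91801655-91801904, minus strand: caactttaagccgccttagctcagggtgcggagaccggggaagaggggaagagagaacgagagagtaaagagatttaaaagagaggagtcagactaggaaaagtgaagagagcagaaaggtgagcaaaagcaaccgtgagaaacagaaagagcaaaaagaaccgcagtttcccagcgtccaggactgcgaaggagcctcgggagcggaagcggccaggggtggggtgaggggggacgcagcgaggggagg

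The Nkx2-5 and Irx3 windows held none of these motifs. Isl1 had CCAAT at -80 to -76 and again at -34 to -30, counted from the start. The upstream Hopx start had a CArG box at -83 to -74 and a CCAAT in reverse at -187 to -183. The downstream one had an E-box at -86 to -81 and a reverse CCAAT at -188 to -184. No match overlapped another. The Nkx2-5 element, the homeodomain core and the GATA site were found in none of the 8 windows, against 10.1%, 4.84% and 9.99% of 32851 windows of the same length. CCAAT was found in 3 of 8 against 33.8%, the GC box in 3 of 8 (Irx4 and both Prox1 starts) against 32.7%, and the CArG box in 1 of 8 against 1.47%. The TATA box occurred in 1 of 8 (the upstream Prox1 start) against 12.4%, and the E-box in 1 of 8 against 6.02%. A match is a string of letters and not a measured site, and the absence of one says only that these letters are not in the window.

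Levels are log2 of the intensity plus 16. A probe set was called above background in a heart where its level was higher than that of 95% of 72 genes expressed in unrelated organs (among them eye, testis, pituitary and mammary gland) on the same array. That background level was 5.21, 5.30, 5.19, 5.20 and 4.98 in hearts 6 to 10, so heart 10 had the lowest bar and heart 7 the highest. A probe set was called detected when all 5 hearts passed. Of the 9 member probe sets 6 were detected, where 48.9% of all probe sets were. By gene, 5 of 7 were detected, Nkx2-5, Isl1, Hopx, Irx3 and Irx4, against 54.2% of all genes. A gene that is not detected may still be expressed. In whole hearts, fewer cells of a type and less RNA per cell cannot be told apart, and how strongly a probe set responds differs between probe sets, so members were not ranked against each other. All 9 listed cardiomyocyte markers were detected, which bears on the labelled tissue. No pair of arrays held identical values, and the correlation of 2 hearts across detected genes lay between 0.948 and 0.982. The Gapdh control, a measure of RNA or amplification quality, had its highest 3′ over 5′ ratio in heart 7, at 5.69, and its lowest in heart 8, at 2.50. The actin control had its highest in heart 8, at 4.48, with 4.27 in heart 7 and 3.20 to 3.67 in the other hearts. The bright Isl1 probe set, Irx4 and Prox1 were lowest in heart 8, and the part of RNA quality in those levels was not tested.

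**Figure D1:**
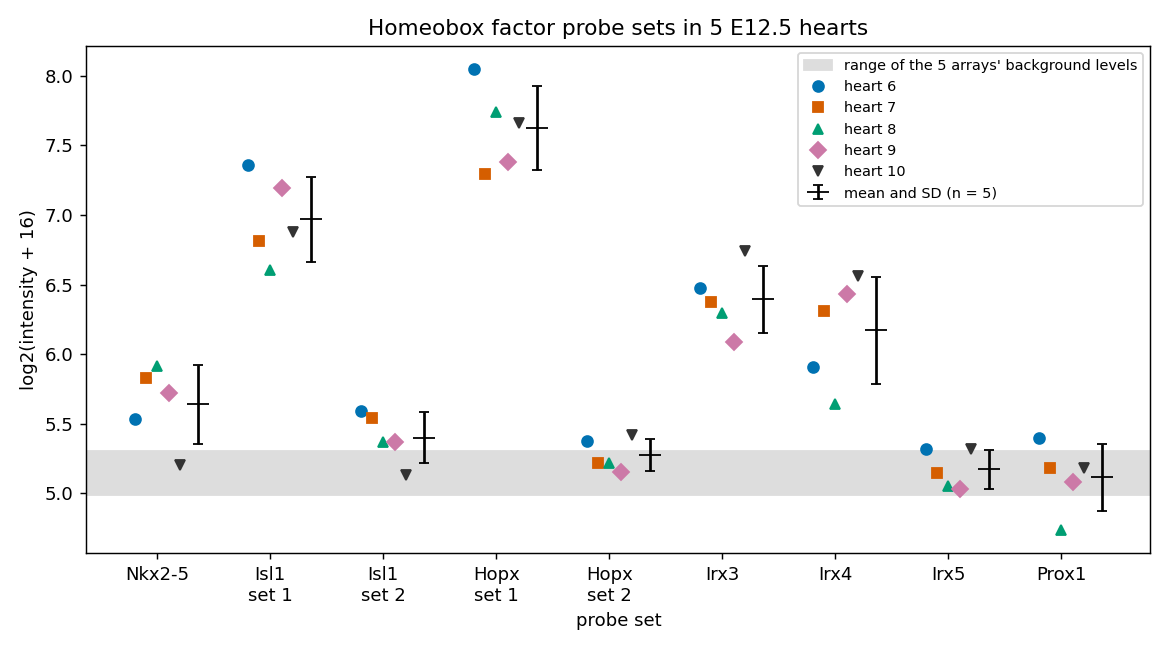
Level of each of the 9 probe sets (x axis) as log2(intensity + 16) (y axis) in each of the 5 hearts (symbols), with mean and SD beside them and the range of the arrays' background levels in grey. Isl1 set 1, Hopx set 1, Irx3 and Irx4 lie above the band in all hearts, whereas Hopx set 2, Irx5 and Prox1 lie in or near it, between 4.74 (Prox1 in heart 8, below the band) and 5.42 (Hopx set 2 in heart 10, above it).

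Nkx2-5 (probe set 1449566_at, chromosome 17) gave a weak but detected signal. Its level was 5.53, 5.83, 5.91, 5.72 and 5.20 in hearts 6 to 10, with a mean of 5.64 ± 0.28 (SD, n = 5). Hearts 7, 8 and 9 were above the mean and hearts 6 and 10 below it, with heart 10 the lowest. The intensity ran from 20.8 to 44.2, a ratio of 2.13. The SD rested largely on heart 10 and was 0.16 without it. In heart 10 Nkx2-5 exceeded that array's background by 0.22, and in heart 8 by 0.72. With background at the 99th percentile it passed in 4 of 5 hearts and was no longer detected.

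Isl1 (chromosome 13) was measured by 2 probe sets designed on the same transcript sequence. The brighter, 1450723_at, had levels of 7.36, 6.81, 6.60, 7.20 and 6.88 in hearts 6 to 10, with a mean of 6.97 ± 0.31 (SD, n = 5). Every heart exceeded background by at least 1.41. The dimmer, 1422720_at, had 5.59, 5.54, 5.37, 5.37 and 5.13, with a mean of 5.40 ± 0.18, and exceeded background by 0.15 to 0.38. Without heart 10 its SD was 0.12. Heart 6 was the highest by both. They placed 3 of 5 hearts on the same side of their means and parted on hearts 7 and 9, so the order of the remaining hearts depended on the probe set. With background at the 99th percentile the dimmer probe set passed in 2 hearts and the brighter still in all 5.

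Hopx (chromosome 5) likewise had a bright and a dim probe set. The bright one, 1428662_a_at, had levels of 8.05, 7.29, 7.74, 7.38 and 7.66 in hearts 6 to 10, with a mean of 7.63 ± 0.30 (SD, n = 5), and lay at least 1.99 above background. Heart 6 was the highest and hearts 7 and 9 the lowest. Heart 7 is also the heart with the highest Gapdh ratio, and the part of RNA quality in its Hopx level was not tested. The dim one, 1451776_s_at, had 5.38, 5.22, 5.22, 5.16 and 5.42, with a mean of 5.28 ± 0.11, and passed background in hearts 6, 8 and 10 only. In heart 8 it did so by 0.022. Both probe sets placed hearts 6 and 10 above their means and hearts 7 and 9 below, and parted on heart 8. Their mean intensities were 185 and 22.8. In Affymetrix naming, a set ending in _s_at can be shared by several transcripts, of the same or of different genes, and its signal is to that extent uncertain. The sources used here do not say which of the starts shown above each probe set reads.

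Among the Iroquois genes, Irx3 and Irx4 were detected and Irx5 was not. Irx3 (1418517_at, chromosome 8) had levels of 6.48, 6.37, 6.30, 6.09 and 6.74 in hearts 6 to 10, with a mean of 6.39 ± 0.24 (SD, n = 5), at least 0.88 above background. Heart 10 was the highest and heart 9 the lowest. Irx4 (1419539_at, chromosome 13) had 5.91, 6.31, 5.64, 6.43 and 6.56, with a mean of 6.17 ± 0.38. Its hearts fell into a lower pair, 6 and 8, and a higher 3, hearts 7, 9 and 10. Its intensity ran from 33.9 to 78.4, a ratio of 2.31. Irx5 (1421072_at, chromosome 8) had 5.32, 5.14, 5.05, 5.03 and 5.32, with a mean of 5.17 ± 0.14, and passed background in hearts 6 and 10.

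Irx3 and Irx5 are adjacent coding genes on chromosome 8, followed by Irx6. Irx3 and Irx5 lay on the same side of their means in 5 of 5 hearts, with hearts 6 and 10 above and hearts 7, 8 and 9 below, and in 4 of 5 after quantile normalization. Of all other probe sets, 3.91% lay on the same side as Irx3 in all 5 hearts, so the shared sides are a description of 5 hearts. No other Iroquois pair compared did so, and Irx4 shared the side of Irx3 in 2 of 5 hearts and that of Irx5 in 2 of 5. Irx6 (1427383_at) shared the side of Irx3 in 1 of 5 hearts. It had 5.13, 5.55, 5.32, 5.64 and 5.06 in hearts 6 to 10, with hearts 6 and 10 the lowest, and passed background in 4. On chromosome 13 the order is Irx1, Irx2 and Irx4. Irx2 (1426298_at) had 5.07, 4.68, 4.94, 5.26 and 5.07, passed background in 2 hearts and shared the side of Irx4 in 3 of 5. Irx1 (1451983_at) passed background in none, with levels from 4.23 to 5.02. In neither cluster did all 3 measured genes place the hearts in 1 order.

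Prox1 (1421336_at, chromosome 1) gave signal around background and was not detected. Its level was 5.40, 5.18, 4.74, 5.08 and 5.18 in hearts 6 to 10, with a mean of 5.12 ± 0.24 (SD, n = 5). It passed background in hearts 6 and 10, by 0.19 and 0.20, and heart 8 was the lowest, 0.46 under its array's background. Hearts 7 and 10 had the same level to 2 decimals, yet only heart 10 passed, because its background was lower. The intensity ran from 10.6 to 26.1, a ratio of 2.46. Without heart 8 the SD was 0.13.

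**Figure D2:**
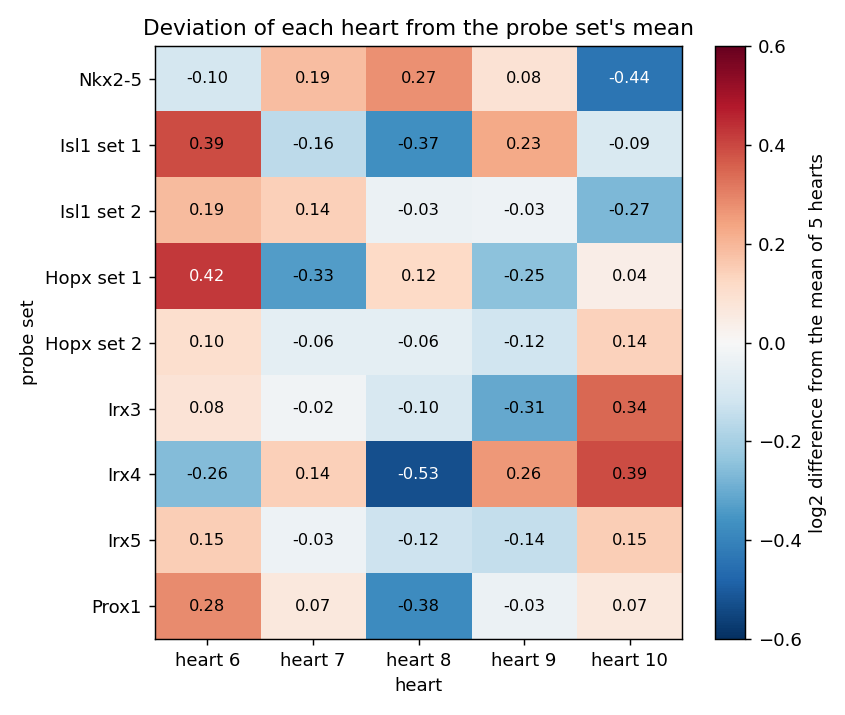
Difference of each heart (columns) from the mean of 5 hearts for each probe set (rows), in log2 units, by colour and printed value. Irx3 and Irx5 share their signs in all 5 hearts (in 4 after quantile normalization), Nkx2-5 is lowest in heart 10 at -0.44, and Irx4 is lowest in heart 8 at -0.53.

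Across members, hearts 6 and 10 were each the highest in 4 probe sets and heart 8 in 1, Nkx2-5. Hearts 8 and 9 were the lowest in 3 each, heart 10 in 2 and heart 7 in 1. Heart 10 thus had the highest Irx3, Irx4, Irx5 (level with heart 6 to 2 decimals) and dim Hopx signal and the lowest Nkx2-5 and dim Isl1 signal. All 9 probe sets passed background in hearts 6 and 10, against 7 in heart 8 and 6 each in hearts 7 and 9. The number of all probe sets above background was 11649 in heart 6, 12573 in heart 10 and 11142, 12172 and 11546 in hearts 7, 8 and 9. After quantile normalization 3 of the 9 probe sets had another highest or lowest heart: the dim Isl1 probe set was then highest in heart 7, and Irx5 and the dim Hopx probe set were lowest in heart 8.

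No member was called more variable between hearts than genes of similar level. The limma variance test set each probe set's variance over 5 hearts against a prior that follows the level. It called 0 of 9 member probe sets at an adjusted p under 0.05, and also 0 of 9 at an unadjusted p under 0.05, where 0.0442% and 4.33% of all probe sets were called. Irx4 had the lowest unadjusted p of the members, 0.196, with an SD of 0.38 against a prior of 0.29 (adjusted p = 0.960). The dim Hopx probe set had the lowest SD, 0.11 against a prior of 0.30. The median SD was 0.24 over the 9 probe sets and 0.27 over all. At the levels of the members an SD over 5 hearts between 1.32 and 1.47 would have matched the weakest call over all probe sets. This is an SD and not a difference between single hearts, and a somewhat smaller SD may also have passed. The member SDs, between 0.11 and 0.38, lay far below it, so at this size an excess of spread over the prior was not detectable. The p-values compare a probe set's variance over these samples with the prior. With a single array for each heart, differences between embryos and differences from amplification or array cannot be told apart.

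**Figure D3:**
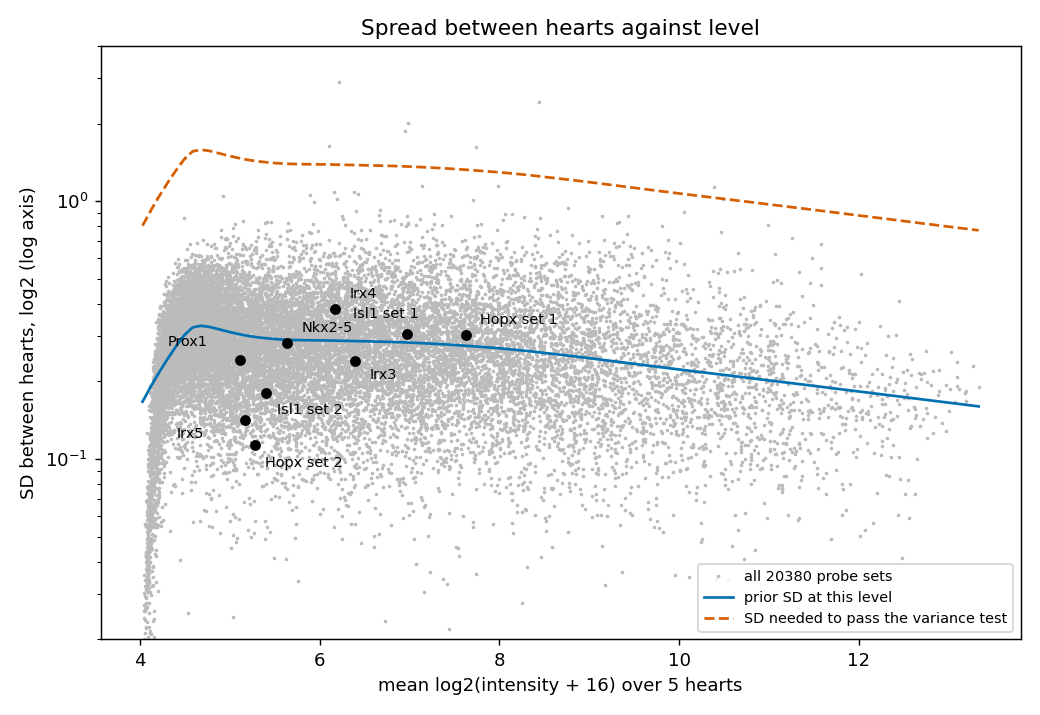
SD between hearts (y axis, log scale) against the mean level (x axis) for all probe sets in grey and the 9 member probe sets in black. Lines show the prior SD and the SD that would match the weakest call of the variance test. The members lie between 0.11 and 0.38, near or below the prior and under the upper line.

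For each member, represented by its brightest probe set, the 2 detected genes with the smallest root mean square difference of heart-centred levels over 5 hearts were looked up. Nkx2-5 was closest to Tmem219 (0.052) and Clba1 (0.062), both lowest in heart 10. Isl1 was closest to Herc1 (0.055) and Tbc1d19 (0.059), and Hopx to Emb (0.023) and the cadherin gene Cdh11 (0.030). Irx3 was closest to Scamp5 (0.034) and Exd2 (0.042), Irx4 to Rasl2-9 (0.064) and Mrpl57 (0.081), and Irx5 to Bex4 (0.023) and Aard (0.040). Prox1 was closest to the bHLH factor gene Bhlhe40 (0.032) and Fem1a (0.039). The median difference from all detected genes lay between 0.256 for Irx5 and 0.398 for Irx4. With 6722 or 6723 genes searched and 5 hearts, close matches arise for most patterns, and they are a description only.

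Partners of the members were mostly detected. Of 12 partner transcription factors 10 were detected (83.3%, against 54.2% of all genes), Gata4 (8.47 ± 0.20), Tbx5 (8.14 ± 0.45) and Tbx20 (9.60 ± 0.33) among them. In hearts 6 to 10 the T-box gene Tbx5 had 8.00, 8.59, 8.61, 7.93 and 7.56, Tbx20 had 10.08, 9.44, 9.80, 9.42 and 9.26, and the zinc finger gene Gata4 had 8.24, 8.36, 8.79, 8.45 and 8.50. Tbx5 and Gata4 were highest in heart 8 and Tbx20 in heart 6, while Tbx5 and Tbx20 were lowest in heart 10 and Gata4 in heart 6. Hand1 passed background in no heart and Tbx2 in 3. Of 11 genes known downstream of Nkx2-5, 9 were detected (81.8%). Nppa, the atrial natriuretic factor gene, was at 11.93 ± 0.16 and the stress-responsive repressor gene Ankrd1 at 11.37 ± 0.15. The connexin gene Gja5 (5.21 ± 0.15) passed in 3 hearts and Bmp10 in none. The mean level of the list lay between 8.57 in heart 9 and 8.80 in heart 6.

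Genes around Isl1 were detected in part. Of 12 measured genes of the second heart field and Isl1 network, 7 were detected (58.3%, against 54.2% of all genes). Mef2c (8.92 ± 0.40) and the Isl1 cofactor gene Ldb1 (6.94 ± 0.23) were among them. The second heart field signals Fgf10 (4.54 ± 0.40) and Fgf8 and the factors Tbx1 (4.29 ± 0.26) and Eya1 passed background in no heart, and Wnt11 in 3. Of 5 measured sinoatrial genes, 3 were detected (60%), Tbx3 (6.09 ± 0.31), Tbx18 (7.16 ± 0.24) and Gjc1, while Shox2 (4.96 ± 0.06) and Cacna1g passed in none. The neuronal list had 3 of its 6 measured genes detected, against 54.2% of all genes, namely the axonal genes Stmn2 (6.25 ± 0.28) and Gap43 (6.10 ± 0.45) and the neurofilament gene Nefl (5.62 ± 0.26). The neuronal tubulin gene Tubb3 passed in 3 hearts, Elavl4 in 1 and Phox2a, a factor of autonomic neurons, in none. Their part in the Isl1 level was not tested. The mean level of the neuronal list ran from 5.39 in heart 7 to 5.51 in heart 10, and that of the sinoatrial list from 5.46 in heart 7 to 5.88 in heart 9. Of 7 genes of foregut and lung epithelium, Grhl2 alone was detected, Nkx2-1 (5.00 ± 0.33) passed in 2 hearts, and Foxa2 (4.13 ± 0.10) and Shh (4.54 ± 0.41) passed in none.

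The list of ventricular markers was detected in part and the atrial list throughout, which describes the lists and not a difference between chambers. Of 8 ventricular markers 5 were detected (62.5%, against 54.2% of all genes). They were the light chain genes Myl2 (13.19 ± 0.17) and Myl3 (13.19 ± 0.18), the ventricular repressor gene Hey2 (7.43 ± 0.50), Myh7 and Cited1. Mycn passed background in 3 hearts, and Hand1 and Bmp10 in none. All 8 atrial markers were detected (6 with probe sets averaged), including Myl7 (12.72 ± 0.14), Sln (5.68 ± 0.19) and Nr2f2 (6.34 ± 0.35), a nuclear receptor of atrial identity. Myl7 and, from the ventricular list, Myh7 are also on the cardiomyocyte list. In the list of other Iroquois genes and their targets 2 of 9 were detected, the connexin gene Gja1 (11.37 ± 0.13) and the chemokine gene Cxcl12 (7.51 ± 0.35). The potassium channel gene Kcnd2, also on that list, passed background in no heart (4.79 ± 0.07). Whether Iroquois factors act on any of these genes here was not tested.

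Around Hopx, 10 of 11 genes were detected (90.9%, against 54.2% of all genes), the partners Srf (6.35 ± 0.13), Hdac2 (7.61 ± 0.32) and Smad1 (6.61 ± 0.38) among them. The Srf target Fos passed in 2 hearts. Around Prox1, all 6 listed muscle genes were detected, including the sarcomere genes Actn2 (10.41 ± 0.23) and Nrap (7.08 ± 0.35) and the focal adhesion gene Zyx (7.26 ± 0.57). The others were Tnnt3 (6.39 ± 0.23), Tnni2 (9.01 ± 0.31) and Myl1 (10.46 ± 0.22). Whether Prox1 raises or lowers any of these genes here was not tested. Of 8 measured genes of lymphatic endothelium 5 were detected (62.5%), Flt4 (6.09 ± 0.17), Pdpn (9.46 ± 0.62), Vegfc, Reln and Itga9. Lyve1 (5.19 ± 0.21) and Nrp2 (5.27 ± 0.37) passed in 2 hearts each and Sox18 in none. The mean level of that list lay between 5.95 and 6.36. Of 7 liver genes Ttr (5.95 ± 0.24) alone was detected, Apoa2 passed in 4 hearts, Alb (4.63 ± 0.49) and Ahsg in 1 each, and Afp (4.62 ± 0.28), Apoa1 and Fgb in none. The mean level of the liver list lay between 4.68 and 5.19. Their part in the Prox1 level was not tested.

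Of 14 other measured homeobox genes of mesoderm, 6 were detected (42.9%, against 54.2% of all genes). Among them were the cofactor genes Meis1 (5.83 ± 0.17) and Meis2 (7.42 ± 0.26) and the mesenchymal factor gene Prrx1 (6.97 ± 0.31). Among the cardiomyocyte markers Tnnt2 had 13.00 ± 0.15, Myh6 11.97 ± 0.14 and Actc1 12.48 ± 0.04. By limma's variance test over all genes, 0 genes of the 15 lists had an adjusted p under 0.05, where 0.0403% of all genes were called. At an unadjusted p under 0.05 the atrial, partner, lymphatic, liver, Prox1 and cardiomyocyte lists had 1 gene each and the ventricular and other homeobox lists 2 each, and 551 of all 12393 genes reached it.

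**Figure D4:**
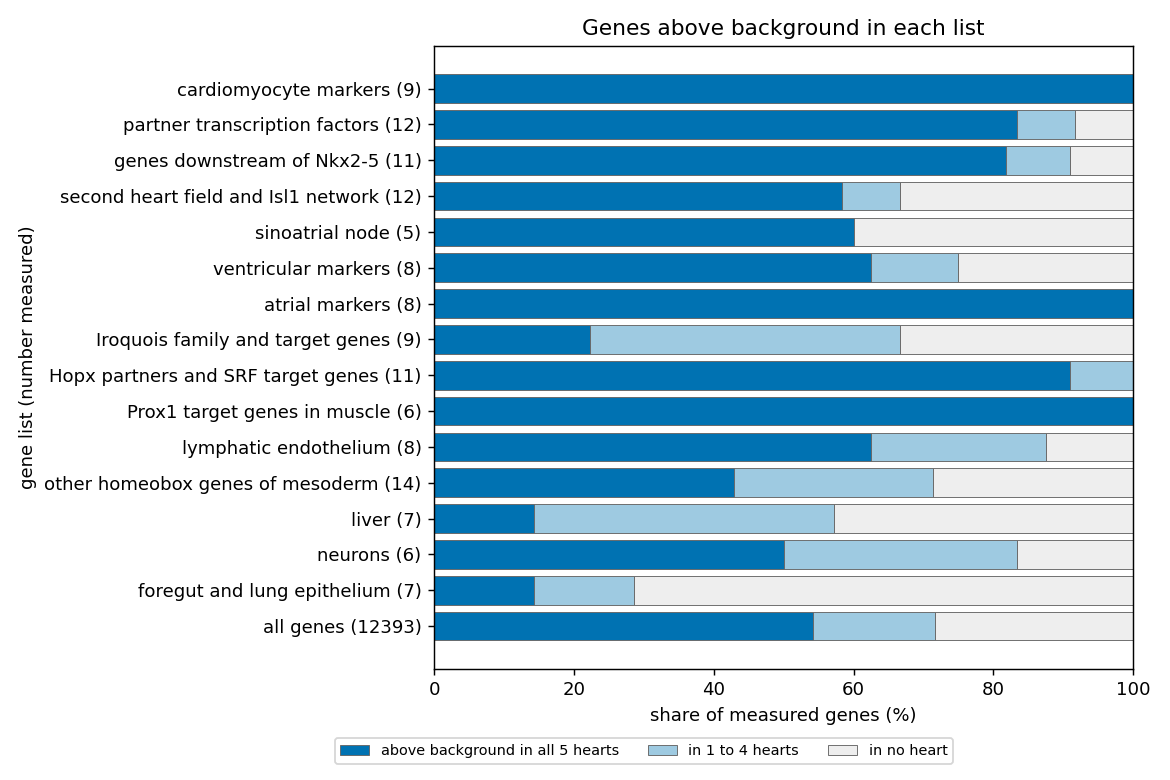
Share of measured genes (x axis, %) in each list (y axis, with the number measured) that passed background in all 5 hearts, in 1 to 4 or in none, with all genes in the bottom bar. All cardiomyocyte, atrial and Prox1 muscle genes are detected, against 22.2% of the Iroquois list, 14.3% of the liver and foregut lists and 54.2% of all genes.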

How the data were processed

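The deposited values are linear intensities, 1 for each probe set on each array. The submitters' processing notes name GCOS as the authors' software, without version, algorithm or settings. Detection calls were not used here. The deposited intensities share, as the values show, a 2% trimmed mean of 150.1. They were scaled to a common trimmed mean and analysed as log2(intensity + 16), which understates differences of weak probe sets.

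Of 22690 probe sets, the platform annotation gives a single symbol to 20393 and several to 691, and does not list 1606. Without control probe sets 20380 remained, of which 20351 matched the GRCm38.p6 table by Entrez number. A listed gene is represented by its probe set of highest mean. Of 80 written off-tissue genes 72 were measured, and none was detected.

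R 4.3.3 and limma 3.58.1 were used. An F test, upper tail, compared the variance of a probe set (df 4) with a robust, level-dependent prior (df 12.57), Benjamini-Hochberg over all probe sets, threshold 0.05, tested on simulated data. Members and lists were chosen with earlier results of these data known. Named genes are all members, the first 3 measured genes of each list, members of counts of 5 or fewer, and the 2 nearest patterns of each member. Any other gene was named with its values in view. Alternatives were no scaling, quantile normalization, offsets of 1 and 64, each heart left out, background at the 90th or 99th percentile or in at least 3 hearts, 1 value per gene, dim probe sets left out, and a prior without robust estimation or trend. Applying them to the context lists was decided after the data were examined.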

Additional observations from a re-analysis of the deposited data

Results flagged for a closer look

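A single heart far from the other 4 was looked for with Dixon's test (the gap between the extreme value and the nearest one, over the full range) in the 9 member probe sets and 45 named list genes. None of the member probe sets exceeded the critical value of 0.71, the highest being Prox1 at 0.524. Of the 54 values 4 did so, where chance flags about 1 in 20. Mef2c was at 8.24 in heart 7, while the others had 9.01 to 9.30 (ratio 0.734). Heart 7 also had the highest Gapdh 3′ over 5′ ratio, 5.69, and the part of RNA quality in its Mef2c level was not tested. Tbx1 was at 4.74 in heart 8, while the others had 4.07 to 4.24 (0.745), below background throughout. Nkx2-1 was at 4.43 in heart 6, while the others had 5.05 to 5.23 (0.778). Foxa2 was at 4.30 in heart 8, while the others had 4.06 to 4.13 (0.715), also below background throughout.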

How the results depend on the processing

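The count of detected member probe sets was 6 of 9 under no scaling, quantile normalization and both other offsets, where 48.9% of all probe sets were detected. It was also 6 with background at the 90th percentile (51.9% of all) and without each heart in turn (49.1% to 51.1% of all). With background at the 99th percentile it was 4 (43.1% of all), where Nkx2-5 and the dim Isl1 probe set were lost. When 3 hearts sufficed it was 7 (57.4% of all), where the dim Hopx probe set was gained. The count of detected member genes was 5 of 7 throughout, except 4 at the 99th percentile. No member was called by limma's variance test under any alternative run, with the lowest adjusted p of each between 0.939 and 0.989, while the number called among all probe sets moved from 9 to 17 with an offset of 1, to 16 without heart 7, to 4 without heart 8, to 2 without a robust prior and to 1 without its trend. Mean levels stayed within 1 SD under both other scalings and without any heart. For Irx4 the range without single hearts was 6.07 to 6.30. SDs moved by over 1.5 times only for Nkx2-5 (0.28 to 0.16) and the dim Isl1 probe set (0.18 to 0.12) without heart 10 and for Prox1 (0.24 to 0.13) without heart 8, among the settings that left out a heart. In the context lists, detected genes went from 2 to 4 for the Iroquois list (90th percentile, or 3 hearts sufficing), from 5 to 3 for lymphatic, 3 to 1 for neuronal and 1 to 0 for foregut genes (99th percentile), from 1 to 2 for liver genes (without heart 6, or 3 hearts sufficing) and from 1 to 0 for foregut genes with probe sets averaged. Changes in other lists included the atrial genes, from 8 to 6 with probe sets averaged and to 7 at the 99th percentile. The other homeobox genes went from 6 to 9 (3 hearts sufficing), to 8 (without heart 7) and to 4 (probe sets averaged). The cause was not tested. Irx5, Prox1 and the dim Hopx probe set lay within 0.46 of the background level in every heart, which limits what can be said of them. No paired analysis was possible because the samples form 1 group.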
